A study of Mus musculus with 27 samples.

Results

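Secreted growth factor ligands were followed across all conditions in RNA-seq data of *Setdb1* cKO iMEFs. The 10 genes were chosen by name and are *Areg*, *Ereg*, *Hbegf*, *Hgf*, *Fgf2*, *Fgf7*, *Vegfa*, *Vegfc*, *Kitl* and *Igf1*. They are 10 of the 22258 gene symbols in the tables, and each has a row in all 3 experiments. The iMEFs are immortalized mouse embryonic fibroblasts of 1 recloned line, in which 4-hydroxytamoxifen (4OHT) deletes a conditional *Setdb1* allele, and every group, untreated cells included, carries that allele. *Setdb1* is a histone H3 lysine methyltransferase that represses endogenous retroviruses. The total RNA experiment holds 9 of the 27 libraries, with 3 from untreated cells, 3 from cells given 4OHT for 4 days and harvested at day 5 (4OHT day 5), and 3 from cells that the labels describe as cultured for over 2 weeks after deletion (long-term KO). The siRNA experiment holds 8 libraries harvested at day 6, with 2 each for control siRNA (siCtrl), siRNA against the maintenance DNA methyltransferase *Dnmt1* (siDnmt1), 4OHT + siCtrl and 4OHT + siDnmt1. The inhibitor experiment holds 10 libraries, with 2 each for untreated cells, 150 nM of the histone deacetylase inhibitor TSA for 24 hours (TSA), 1 µM of a MEK inhibitor for the last 24 hours (PD), 4OHT at day 6 (4OHT day 6) and 4OHT + PD. The labels spell the MEK inhibitor PD0325091 in 1 field and PD0325901 in another.

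Growth factor ligands are proteins that cells release to signal to themselves or their neighbours through receptor tyrosine kinases. *Areg*, *Ereg* and *Hbegf* are made as membrane precursors, are cut free by the protease *Adam17*, and bind the EGF receptor. *Hgf* binds *Met*, *Fgf2* and *Fgf7* bind FGF receptors, *Vegfa* binds *Flt1* and *Kdr*, *Vegfc* binds *Flt4*, *Kitl* binds *Kit* and *Igf1* binds *Igf1r*. All of these receptors can feed the RAS, RAF, MEK and ERK cascade, and several EGF family ligands are themselves genes that this cascade induces, so that a ligand can stand both upstream and downstream of ERK. Fibroblasts are a known source of *Hgf*, *Fgf7*, *Kitl* and *Igf1*, which act on epithelial, germ, blood and pigment cells that carry the receptors.

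Values are FPKM, the fragments of a transcript scaled to its length and to the library's depth, which allow levels to be set side by side within an experiment. The deposited intervals implied 35.9 to 39.6 M fragments (M, mega) per total RNA library, 13.7 to 15.6 M in the siRNA experiment and 10.9 to 12.6 M in the inhibitor experiment, so low values are firmest in the total RNA libraries. *Dnmt1* was at 80.5 and 73.4 FPKM with siCtrl against 12.2 and 10.6 FPKM with siDnmt1, whereas *Setdb1* was between 4.16 and 6.52 FPKM at 4OHT day 5 against 5.16 to 5.95 FPKM in untreated cells, and at 7.24, 7.32 and 6.96 FPKM in long-term KO, above every untreated total RNA library. A gene-level *Setdb1* value therefore did not check the deletion. In the inhibitor experiment *Setdb1* was listed at 0 in 3 of the 4 libraries given 4OHT, where a 0 can be a failed estimate. Of 12 fibroblast markers, 11 had a value and all 11 were at 1 FPKM or more in every group. Of those tested, 5 of 10 were lower at 4OHT day 6 (median -0.98, with *Col3a1* at -3.76), 6 of 10 were lower and 2 higher with TSA (median -1.30), 4 of 11 were lower with 4OHT + siCtrl against siCtrl and 5 of 11 with 4OHT + siDnmt1 against siDnmt1. Over all genes 6.21%, 12.8%, 3.46% and 2.28% were called lower in these comparisons, and 19.3% higher with TSA. Markers also rose. *Col1a1* (1.36) and *Col1a2* (1.25) were called higher with PD, and *Pdgfrb* (2.80) in long-term KO against untreated cells, with no marker called lower in either. With 4OHT + PD against 4OHT day 6, *Col1a1*, *Col1a2*, *Col3a1* and *Col5a1* were higher and *Vim* lower. The 7 endothelial markers summed to at most 0.688 FPKM in any library. Epithelial markers summed to 2.59 to 2.65 FPKM in the untreated total RNA libraries, 8.48 to 10.5 FPKM at 4OHT day 5 and 0.774 to 0.896 FPKM in long-term KO. They summed to 0.967 to 1.26 FPKM with siCtrl and 1.83 to 1.93 FPKM in the untreated libraries of the inhibitor experiment, but to 63.6 to 64.5 FPKM with siDnmt1, 62.4 to 98.7 FPKM with 4OHT + siDnmt1 and 39.7 to 45.9 FPKM with TSA. These sums rest on different genes. With siDnmt1 the highest means were *Krt8* at 36.5 and *Krt18* at 17.7 FPKM, while *Cdh1* was at 0.332 against 0.354 FPKM with siCtrl. With TSA the highest was *Epcam* at 28.7 FPKM, and *Krt8* and *Krt18* were at 0.453 and 0.152 FPKM. The 8 haematopoietic markers with a value summed to 71.7 to 77.8 FPKM with TSA against 5.55 to 6.15 FPKM in untreated cells. Both that were tested were higher with TSA, *Cd68*, which alone was 66.9 and 60.5 FPKM, and *Coro1a*, from 1.12 and 1.13 FPKM to 10.5 and 10.6 FPKM (3.12, adjusted p = 0.000299), while the defining marker *Ptprc* was at 0.0873 and 0.131 FPKM. The part of these markers in the ligand results was not tested. The 2 libraries of 4OHT + siCtrl differed from each other more than the replicates of other groups. They correlated at 0.917 across genes, against 0.941 to 0.973 in the other groups of that experiment, and their epithelial markers summed to 1.7 FPKM in replicate 1 and 18 FPKM in replicate 2. Which of the pair is the unusual one cannot be told from these values, so the comparisons that use them are also given without each. In bulk libraries, fewer cells that express a ligand and less RNA per cell cannot be told apart. The labels do not say whether replicates were separate cultures, so p-values measure the spread between these libraries, which may be technical.

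In the untreated total RNA libraries, *Hbegf* had the highest level of the 10 ligands at 19.4 FPKM (mean, n = 3), followed by *Vegfa* at 16.6 and *Fgf7* at 14 (n = 2 for *Fgf7*). *Kitl* was at 8.84, *Igf1* at 3.74, *Ereg* at 3.51, *Hgf* at 2.2, *Areg* at 2.04 and *Vegfc* at 0.629 FPKM, and *Fgf2* was listed at 0. *Igf1* ranged from 3.62 to 3.97 FPKM and *Ereg* from 3.43 to 3.64 FPKM, so these neighbours in the order overlapped. In the untreated cells of the inhibitor experiment, *Fgf7* led at 30.3 FPKM (n = 2), ahead of *Kitl* at 27.8, *Vegfa* at 22.5 and *Hbegf* at 19.8 FPKM. The lower members kept much the same places there, with *Igf1* at 4.54, *Ereg* at 4.5, *Areg* at 1.89, *Hgf* at 1.65 and *Vegfc* at 1.02 FPKM and *Fgf2* again at 0. The 10 ligands summed to 54 to 58.3 FPKM at 4OHT day 5 but only 30.6 to 31.6 FPKM in long-term KO. In the inhibitor experiment the sum was 114 FPKM in both untreated libraries, 172 to 189 FPKM with TSA and 41.9 to 57.9 FPKM with PD. Untreated total RNA libraries summed to 56.6 to 72.4 FPKM, and the lowest of these sums lacks *Fgf7*, which has no value in that library.

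**Figure D1:**
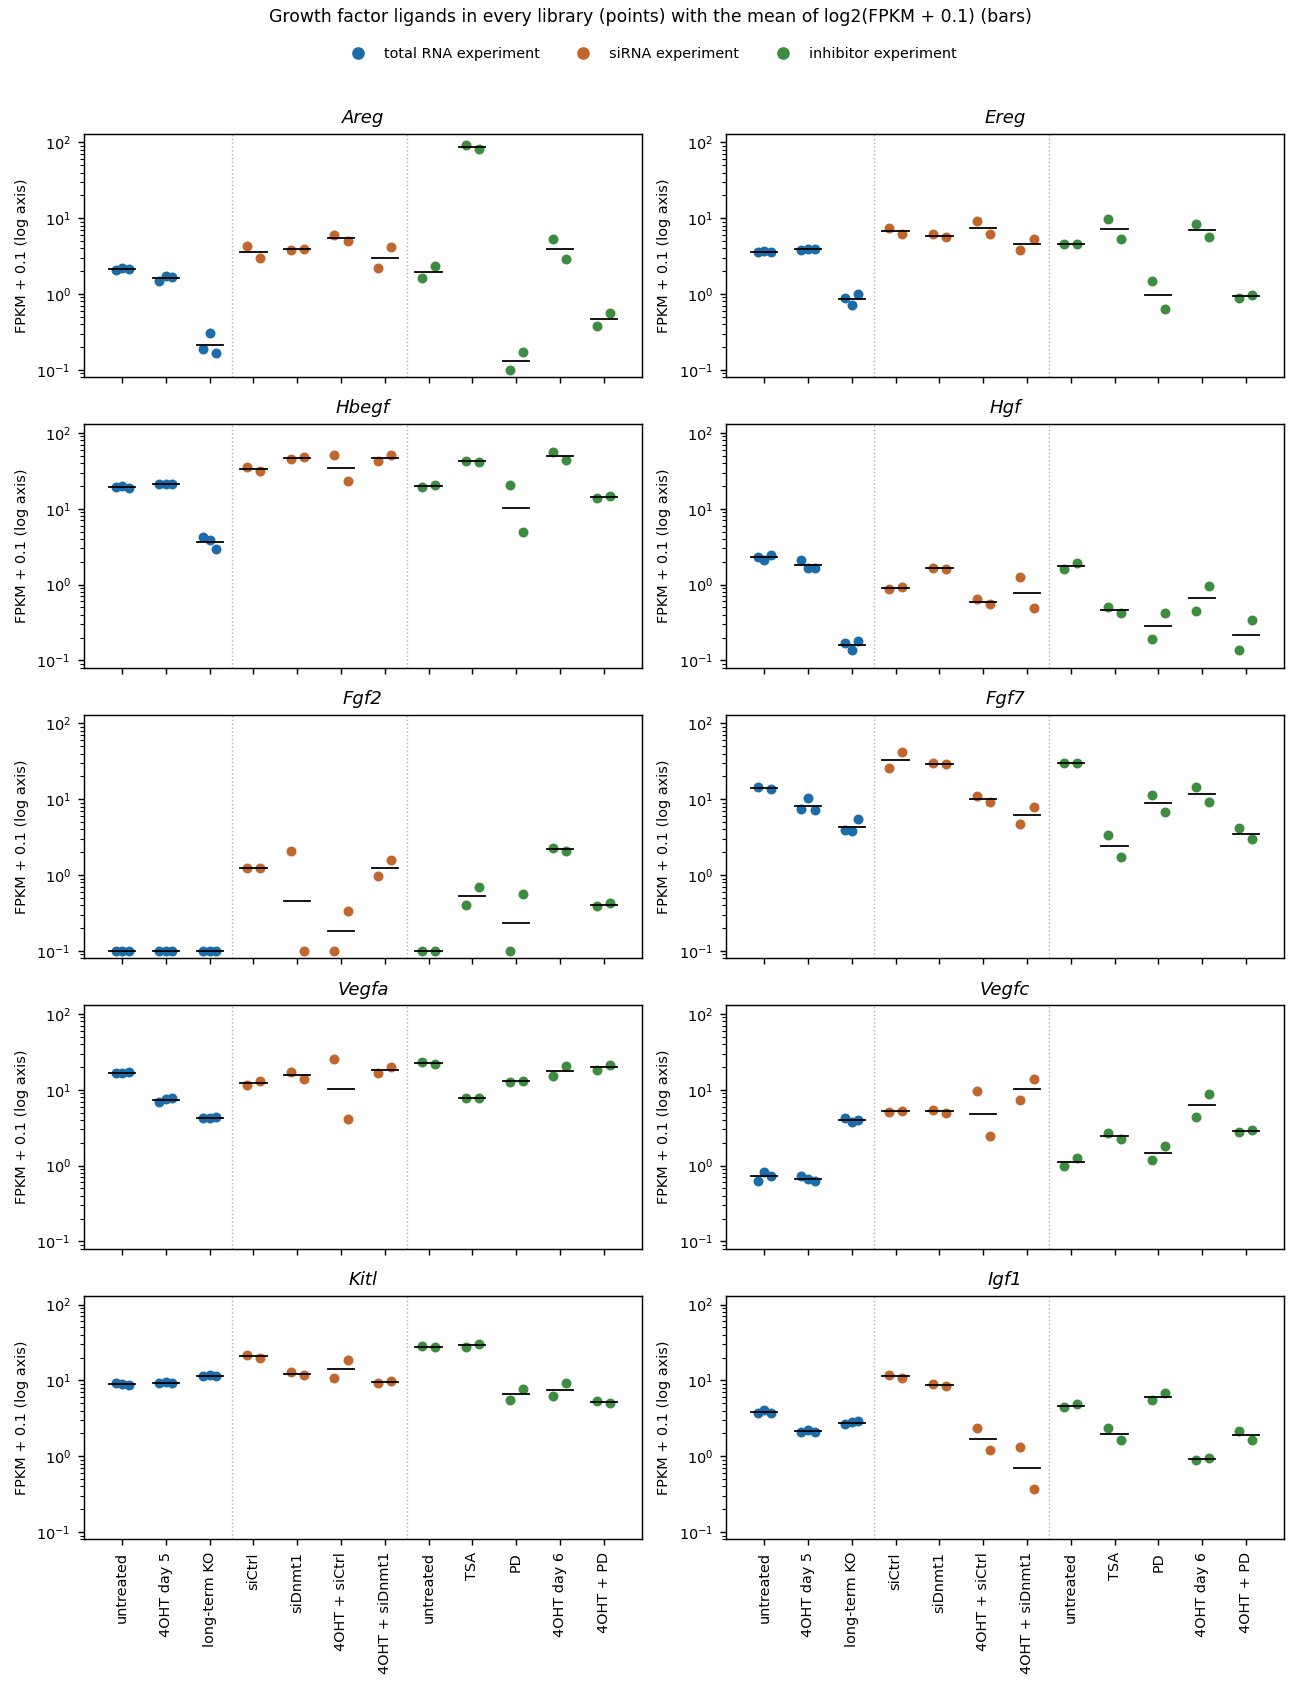
Each panel shows 1 ligand, with FPKM + 0.1 on a log axis and the 12 groups on the horizontal axis. Points are libraries, bars are the mean on the log2 scale, and colours are the 3 experiments. *Areg* spans the widest range, from 0 with PD to 92.5 FPKM with TSA, and *Fgf2* lies at the floor in all total RNA libraries.

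Promoter sequence was read for the ligands from RefSeq on GRCm38.p6, as the 250 bases before each annotated start, and 8 of the 10 members had an entry. A set of 5 short motifs was looked for on both strands in these windows and in all 32851 windows of the same length. They were the cyclic AMP response element TGACGTCA, held by 1.55% of all windows, the AP-1 element TGANTCA (6.75%), the TATA box TATAAA (12.4%), the GC box GGGCGG (32.7%) and the ETS core CCGGAAG (6.91%). In the windows of the ligands no match of 1 motif overlapped a match of another. Sequences are shown for *Areg*, which moved most between conditions, for *Kitl* and *Vegfc*, which moved in opposite directions at 4OHT day 6, and for *Igf1*, which was lower with 4OHT in several comparisons. Capitals mark the motifs found, and each sequence is written 5′ to 3′ on the plus strand.
Areg, chr5:91139349-91139598: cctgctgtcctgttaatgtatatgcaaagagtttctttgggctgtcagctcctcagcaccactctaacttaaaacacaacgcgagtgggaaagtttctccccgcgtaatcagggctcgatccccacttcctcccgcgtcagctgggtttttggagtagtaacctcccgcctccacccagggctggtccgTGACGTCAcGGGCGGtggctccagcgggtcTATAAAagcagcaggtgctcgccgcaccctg
Kitl, chr10:100015571-100015820: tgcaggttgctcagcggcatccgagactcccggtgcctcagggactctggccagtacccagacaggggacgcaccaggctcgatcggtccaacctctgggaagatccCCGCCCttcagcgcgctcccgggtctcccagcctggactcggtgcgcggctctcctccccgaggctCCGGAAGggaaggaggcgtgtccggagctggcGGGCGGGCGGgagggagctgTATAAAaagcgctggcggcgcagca
Vegfc, chr8:54077282-54077531: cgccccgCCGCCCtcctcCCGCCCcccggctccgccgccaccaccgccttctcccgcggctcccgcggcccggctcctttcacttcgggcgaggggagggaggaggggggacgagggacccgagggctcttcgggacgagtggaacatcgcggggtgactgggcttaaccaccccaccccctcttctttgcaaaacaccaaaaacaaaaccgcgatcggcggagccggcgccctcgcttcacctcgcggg
Igf1, chr10:87860861-87861110: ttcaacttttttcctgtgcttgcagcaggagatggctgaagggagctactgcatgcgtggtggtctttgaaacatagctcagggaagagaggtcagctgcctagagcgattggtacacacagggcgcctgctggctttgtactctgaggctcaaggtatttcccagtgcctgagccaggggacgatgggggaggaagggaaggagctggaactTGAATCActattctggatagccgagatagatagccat
The *Areg* window holds a cyclic AMP response element 61 to 54 bases before the start, a GC box 52 to 47 bases before it and a TATA box 31 to 26 bases before it. The *Kitl* window holds an ETS core at 77 to 71 bases, 3 GC boxes, of which 2 overlap, and a TATA box at 25 to 20 bases before the start. The *Vegfc* window has 2 GC boxes, at 243 to 238 and 232 to 227 bases, and 30 CG dinucleotides, where the median of all windows is 6. The *Igf1* window has 5 CG dinucleotides and 1 AP-1 match, 37 to 31 bases before the start. None of the 5 motifs was found in the windows of *Fgf7* and *Hgf*. A match is a description of letters and shows no binding.

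Which ligands changed after loss of *Setdb1*, and which with each further treatment, was asked in 12 comparisons with limma on log2(FPKM + 0.1). A gene was called at an adjusted p under 0.05 and a change of at least 2-fold. At 4OHT day 5, 1 of the 9 ligands tested was called, *Vegfa*, which was lower, where 3.33% of the 9792 genes tested were called and 1.29% were lower. In long-term KO against untreated cells, 7 of 9 were called (13.7% of all genes), with *Areg*, *Ereg*, *Hbegf*, *Hgf*, *Fgf7* and *Vegfa* lower (6.21% of all genes were lower) and *Vegfc* higher (7.54%). Their median difference was -1.96 on the log2 scale against 0.07 over all genes. Set against day 5, the long-term KO libraries had 5 of 9 called (12.4%), with *Areg*, *Ereg*, *Hbegf* and *Hgf* lower (5.90%) and *Vegfc* higher (6.46%). *Vegfc* reached 1 FPKM only in long-term KO, so it entered these tests through the group where it was called higher. Each pair of these 3 comparisons shares 1 group of libraries. Of the genes called between long-term KO and untreated cells 54.8% were higher, and 47.8% and 45.0% after median-ratio and quantile scaling. Of the 3 epithelial markers tested, 2 were higher at day 5, 2 were lower in long-term KO against untreated cells and all 3 were lower against day 5 (median -3.51), and their part in the ligand results was not tested. *Krt8* passed the filter only through the day 5 libraries, at 1.97 to 2.61 FPKM, so its calls that involve day 5 rest on that selection.

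In the siRNA experiment all 10 ligands were tested. With siDnmt1 against siCtrl none was called by limma, at a background of 4.83% of 10572 genes, and 1 of the 10, *Kitl*, had an unadjusted p under 0.05. With 4OHT + siCtrl against siCtrl, 2 were called, *Fgf7* and *Igf1*, both lower (6.04% of all genes were called, 2.58% higher and 3.46% lower). The same 2 genes were lower with 4OHT + siDnmt1 against siDnmt1 (5.69% called, 3.41% higher and 2.28% lower). With 4OHT + siDnmt1 against 4OHT + siCtrl none was called (1.46%, with 1.05% higher and 0.407% lower), while 2, *Areg* and *Ereg*, had an unadjusted p under 0.05 and the lowest adjusted p was 0.185 for *Ereg*. Of the genes called with 4OHT + siDnmt1 against siDnmt1, 60.0% were higher, and 39.8% and 38.8% after median-ratio and quantile scaling, so the overall balance of that comparison depends on scaling.

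Without 4OHT + siCtrl replicate 2, 4OHT + siCtrl against siCtrl had 1032 genes called in place of 639, and 2 ligands, *Fgf7* lower (-1.60, adjusted p = 0.0354) and *Vegfa* higher. *Kitl* was then at -0.94 (adjusted p = 0.00670) and *Hbegf* at 0.62 (adjusted p = 0.0275), both under 2-fold. *Areg* was at 0.77, *Ereg* at 0.43, *Hgf* at -0.52 and *Fgf2* at -3.62, none of them called. Without replicate 1 the count was 1107 genes and 3 ligands, *Fgf7* (-1.86, adjusted p = 0.0265), *Vegfa* and *Igf1* (-3.23, adjusted p = 0.0293), all lower. For 4OHT + siDnmt1 against 4OHT + siCtrl, 315 genes and no ligand were called without replicate 2. Without replicate 1 the counts were 856 genes and 3 ligands, all higher, *Hbegf* (1.01, adjusted p = 0.0103), *Vegfa* (2.17, adjusted p = 0.00313) and *Vegfc* (2.06, adjusted p = 0.0189). These calls by limma thus turn on which library is kept. The comparisons that do not use the pair share its estimate of spread, and without replicate 2 the count was 847 genes in place of 511 for siDnmt1 against siCtrl and 954 in place of 602 for 4OHT + siDnmt1 against siDnmt1, with 0 and 2 ligands called as before.

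In the inhibitor experiment PD lowered 5 of 10 ligands against untreated cells, *Areg*, *Ereg*, *Hgf*, *Fgf7* and *Kitl*, where 7.25% of 11309 genes were called, 3.09% higher and 4.16% lower. TSA changed 7 of 10 against a background of 32.1%, with *Areg*, *Fgf2* (listed at 0 in untreated cells, where a 0 can be a failed estimate) and *Vegfc* higher (19.3%) and *Hgf*, *Fgf7*, *Vegfa* and *Igf1* lower (12.8%). At 4OHT day 6, 5 of 10 were called (11.1%), with *Fgf2*, from the same 0 values, and *Vegfc* higher (4.87%) and *Fgf7*, *Kitl* and *Igf1* lower (6.21%). *Fgf2* reached 1 FPKM in this experiment only at 4OHT day 6, so it was tested through that group. *Hgf* reached 1 FPKM only in untreated cells, so its lower calls rest on selection through the group where it was high. Adding PD to 4OHT lowered 3 of 10, *Areg*, *Ereg* and *Fgf7* (3.78% called, 1.39% lower). Between 4OHT + PD and PD, 2 of 10 were called (4.45%), *Areg* higher (3.11%) and *Igf1* lower (1.34%), and 3 with the replicate number as a block, which added *Fgf7* (adjusted p = 0.0208). The comparisons of PD, TSA and 4OHT day 6 share the 2 untreated libraries, and those of 4OHT + PD share its 2 libraries, so they are not independent of each other. After quantile normalization the share of called genes that were higher moved from 42.6% to 52.9% with PD, from 60.3% to 48.7% with TSA and from 70.0% to 57.5% for 4OHT + PD against PD.

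**Figure D2:**
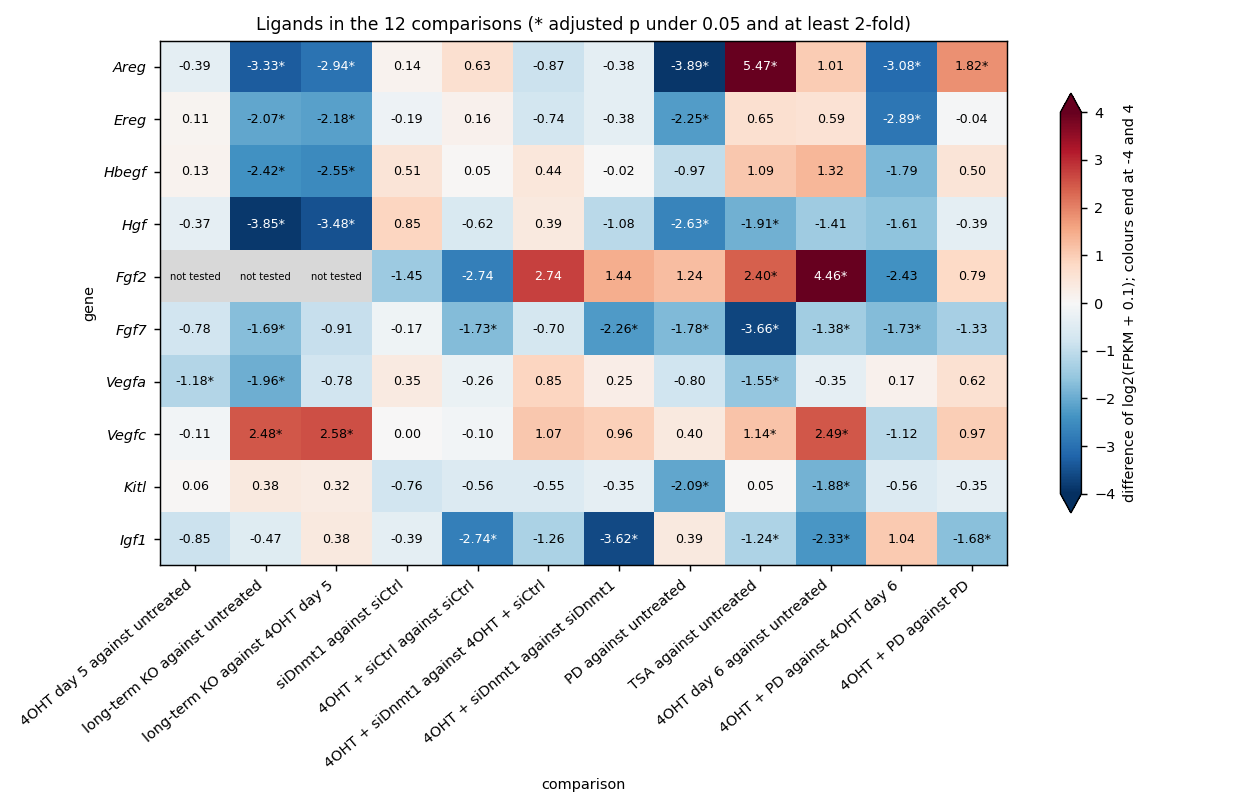
Rows are the 10 ligands and columns the 12 comparisons, and each cell gives the difference of log2(FPKM + 0.1) between the 2 groups, with an asterisk where it was called. Differences of *Fgf2* against the untreated cells of the inhibitor experiment are set by the pseudocount, because it was listed at 0 there. The size for *Areg* with PD is also largely set by it, as both PD libraries were under 0.1 FPKM. For long-term KO, asterisks mark 6 ligands as lower against untreated cells, *Areg*, *Ereg*, *Hbegf* and *Hgf* as lower against day 5, and *Vegfc* as higher in both columns. The TSA column runs from -3.66 for *Fgf7* to 5.47 for *Areg*.

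The EGF family ligand *Areg* lies at chr5:91568625-91577458 on mm9, beside *Ereg* at chr5:91503643-91522675. *Areg* was at 1.95, 2.12 and 2.05 FPKM in untreated cells, 1.38, 1.65 and 1.59 FPKM at 4OHT day 5, and 0.0882, 0.209 and 0.0667 FPKM in long-term KO. The last 3 values rest on 2.36, 7.05 and 3.0 implied fragments. Every long-term KO library was thus far below every other library, and the day 5 libraries were all below the untreated ones. *Areg* fell by 3.33 (log2, standard error 0.22, adjusted p = 5.45e-06, limma) from untreated to long-term KO, and its difference at day 5 was -0.39 (SE 0.22, adjusted p = 0.215).

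In the inhibitor experiment *Areg* showed both its highest and its lowest level. It was at 1.54 and 2.23 FPKM in untreated cells, 92.5 and 81.4 FPKM with TSA, and 5.21 and 2.83 FPKM at 4OHT day 6. With PD it was at 0 and 0.0734 FPKM, the second of which is 1 implied fragment, and with 4OHT + PD at 0.282 and 0.467 FPKM, from 4.0 and 6.0 fragments. The 5 groups did not overlap, in the order TSA, 4OHT day 6, untreated, 4OHT + PD and PD. TSA raised *Areg* by 5.47 (SE 0.40, adjusted p = 3.66e-05), from a mean of 1.89 to 87.0 FPKM, which is 46.0-fold. PD lowered it by a log2 difference of -3.89 (SE 0.40, adjusted p = 0.00126), and PD added to 4OHT by -3.08 (SE 0.40, adjusted p = 0.00601). Both PD libraries were under the pseudocount of 0.1, which largely sets the size of the first difference. The higher level with 4OHT + PD than with PD, a difference of 1.82 (SE 0.40, adjusted p = 0.0348), rests on the few fragments given and lost its call in 8 of 10 fits that left out 1 library. At 4OHT day 6 the difference from untreated cells was 1.01 (SE 0.40, adjusted p = 0.108). In the siRNA experiment *Areg* was at 4.18 and 2.85 FPKM with siCtrl, 3.76 and 3.88 with siDnmt1, 5.96 and 4.86 with 4OHT + siCtrl, and 2.09 and 4.05 with 4OHT + siDnmt1, and no comparison of these groups was called.

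*Ereg*, which binds the EGF receptor and *Erbb4*, was at 3.43, 3.64 and 3.45 FPKM in untreated cells and 3.7, 3.87 and 3.78 FPKM at 4OHT day 5. In long-term KO it was at 0.783, 0.614 and 0.907 FPKM. The long-term libraries stood below all others, and *Ereg* fell by 2.07 (SE 0.12, adjusted p = 2.22e-06) from untreated cells, which is 4.56-fold by the means. The day 5 difference was 0.11, with a 95% interval of -0.16 to 0.38. In the inhibitor experiment *Ereg* was at 4.51 and 4.48 FPKM in untreated cells, 1.38 and 0.526 with PD, 8.26 and 5.62 at 4OHT day 6, 0.793 and 0.878 with 4OHT + PD, and 9.76 and 5.2 with TSA. Both groups given PD were below all groups without it. The difference was -2.25 (SE 0.45, adjusted p = 0.0174) for PD against untreated cells and -2.89 (SE 0.45, adjusted p = 0.0114) for 4OHT + PD against 4OHT day 6, while PD and 4OHT + PD overlapped. *Ereg* with TSA differed from untreated cells by 0.65 (SE 0.45, adjusted p = 0.249), in the libraries in which its neighbour *Areg* rose. The call of PD on *Ereg* was lost in 3 of 10 fits that left out 1 library. With siRNA *Ereg* lay between 3.72 and 8.95 FPKM and was not called.

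*Hbegf*, the heparin-binding ligand of the EGF receptor, lies at chr18:36664581-36675459. It was at 19.3, 19.9 and 18.9 FPKM in untreated cells, 21.2, 21.4 and 21.2 FPKM at day 5, and 4.14, 3.76 and 2.85 FPKM in long-term KO. From untreated cells to long-term KO it fell by 2.42 (SE 0.12, adjusted p = 1e-06), 5.41-fold by the means, and all long-term libraries were below all others. Its day 5 difference was 0.13 (95% interval -0.14 to 0.40). Among the inhibitor libraries it was at 19.2 and 20.3 FPKM in untreated cells, 42.2 and 41.6 with TSA and 56.0 and 43.5 at 4OHT day 6. With PD it was at 20.6 and 4.87 FPKM, and with 4OHT + PD at 13.8 and 14.6 FPKM. As a ratio, the PD replicates differed more than any other pair for this gene in the inhibitor experiment, and the PD difference of -0.97 (SE 0.54, adjusted p = 0.283) was -1.99 (adjusted p = 0.00230) without PD replicate 1 and 0.06 without PD replicate 2. The differences for TSA (1.09, adjusted p = 0.124), 4OHT day 6 (1.32, adjusted p = 0.117) and 4OHT + PD against 4OHT day 6 (-1.79, adjusted p = 0.0959) were over 2-fold without being called, although the libraries did not overlap. All 3 were called in the fits without PD replicate 1 and without PD replicate 2. With siCtrl *Hbegf* was at 35.0 and 31.3 FPKM, with siDnmt1 at 45.6 and 48.6, with 4OHT + siCtrl at 51.1 and 22.9 and with 4OHT + siDnmt1 at 42.3 and 51.0 FPKM, and no difference was called.

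*Hgf*, the ligand of *Met*, lies at chr5:16059313-16125257. It was at 2.21, 2.03 and 2.37 FPKM in untreated cells, 1.98, 1.57 and 1.55 FPKM at day 5, and 0.0688, 0.0356 and 0.0786 FPKM in long-term KO. The long-term values rest on at most 2.62 implied fragments per library, against 199 to 236 in untreated cells. *Hgf* fell by 3.85 in long-term KO (SE 0.15, adjusted p = 3.51e-07), the largest fall of the 9 ligands tested in that comparison, while the day 5 difference was -0.37 (SE 0.15, adjusted p = 0.0992). With the inhibitors *Hgf* was at 1.5 and 1.8 FPKM in untreated cells and lower in all 8 treated libraries. It was at 0.0892 and 0.317 FPKM with PD, 0.406 and 0.327 with TSA, 0.349 and 0.86 at 4OHT day 6, and 0.0366 and 0.238 with 4OHT + PD. The difference was -2.63 (SE 0.58, adjusted p = 0.0241) for PD, -1.91 (SE 0.58, adjusted p = 0.0232) for TSA and -1.41 (SE 0.58, adjusted p = 0.115) for 4OHT day 6. Only the untreated libraries reached 1 FPKM, so *Hgf* entered the tests of the inhibitor experiment through the group where it was highest. At this depth the treated libraries hold at most 17.9 fragments each, and the calls of PD and TSA were lost in 5 and 4 of 10 fits that left out 1 library. In the siRNA experiment *Hgf* lay between 0.387 and 1.56 FPKM, highest with siDnmt1 at 1.56 and 1.52 FPKM against 0.786 and 0.84 FPKM with siCtrl, a difference of 0.85 that was not called (adjusted p = 0.308).

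*Fgf2*, a broad ligand of FGF receptors that leaves cells without a signal peptide, lies at chr3:37247575-37303752 and overlaps the antisense gene *Nudt6*. Whether reads were counted by strand is not given in the sources used here, so reads of the 2 genes cannot be told apart. It was listed at 0 in all 9 total RNA libraries and in both untreated libraries of the inhibitor experiment, and was tested in the siRNA and inhibitor experiments only. A value of 0 can be a failed estimate, as said of *Setdb1*, although values whose deposited status was not OK were set to missing. The absence of *Fgf2* from those libraries is thus not shown. At 4OHT day 6 it was at 2.19 and 2.01 FPKM, from 14.7 and 7.88 implied fragments, while no other library of that experiment was above 0.596 FPKM. The remaining values were 0.298 and 0.596 FPKM with TSA, 0 and 0.456 with PD, and 0.292 and 0.323 with 4OHT + PD. The adjusted p was 0.00520 for 4OHT day 6 and 0.0209 for TSA against untreated cells, and no fold is given because the untreated libraries are listed at 0. Only the 4OHT day 6 libraries reached 1 FPKM, so *Fgf2* entered the tests of that experiment through the group where it was highest. PD added to 4OHT gave a difference of -2.43 (SE 0.70, adjusted p = 0.0851), with both 4OHT + PD libraries below both of 4OHT day 6. In the siRNA experiment *Fgf2* was at 1.13 and 1.13 FPKM with siCtrl, 1.95 and 0 with siDnmt1, 0 and 0.24 with 4OHT + siCtrl, and 0.863 and 1.47 with 4OHT + siDnmt1. None of these differences was called, and at 4OHT its libraries were below siCtrl in this experiment and above untreated cells in the other.

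*Fgf7*, the keratinocyte growth factor that acts on epithelial forms of *Fgfr2*, lies at chr2:125860394-125916921, inside the gene *Fam227b*. In 1 untreated total RNA library its locus was joined with the neighbouring gene *Dtwd1*, so replicate 1 is missing from its values and its test. It was at 14.6 and 13.4 FPKM in the other untreated libraries, 7.32, 10.2 and 7.05 FPKM at day 5, and 3.86, 3.68 and 5.44 FPKM in long-term KO. The 3 groups did not overlap, with a difference of -0.78 at day 5 (SE 0.21, adjusted p = 0.0290, under 2-fold) and of -1.69 in long-term KO (SE 0.21, adjusted p = 0.000398, called). Between long-term KO and day 5 the difference was -0.91, and it passed 2-fold without 4OHT day 5 replicate 3 or without long-term KO replicate 3.

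*Fgf7* was called lower in 7 of the 12 comparisons. With siCtrl it was at 25.9 and 42.4 FPKM and with siDnmt1 at 29.9 and 28.8, whereas it was at 10.8 and 9.05 FPKM with 4OHT + siCtrl and 4.67 and 7.83 with 4OHT + siDnmt1. All 4 libraries given 4OHT were below the 4 others, by a difference of -1.73 (SE 0.31, adjusted p = 0.0210) within siCtrl and -2.26 (SE 0.31, adjusted p = 0.0142) within siDnmt1. The call within siCtrl held without either library of 4OHT + siCtrl, but it was lost in 4 of 8 fits that left out 1 library, each of siCtrl or siDnmt1, and the call within siDnmt1 in 3 of 8. Across the inhibitor libraries it was at 30.4 and 30.2 FPKM in untreated cells, 14.6 and 9.22 at 4OHT day 6, 11.4 and 6.65 with PD, 4.03 and 2.89 with 4OHT + PD, and 3.26 and 1.62 with TSA. Every treated library was below both untreated ones. The difference was -1.38 (adjusted p = 0.0404) for 4OHT day 6, -1.78 (adjusted p = 0.0252) for PD, -1.73 (adjusted p = 0.0427) for PD added to 4OHT and -3.66 (SE 0.40, adjusted p = 0.000197) for TSA. The call of TSA held in all 10 fits that left out 1 library, whereas the calls of 4OHT day 6, PD and PD added to 4OHT were lost in 4, 3 and 6 of them.

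*Vegfa*, the main angiogenic ligand of the family and a known target of the hypoxia response, lies at chr17:46153943-46169326. It was at 16.5, 16.4 and 16.9 FPKM in untreated cells, 6.76, 7.44 and 7.61 FPKM at day 5, and 4.11, 4.2 and 4.24 FPKM in long-term KO. The 3 groups did not overlap and lay close within themselves. *Vegfa* fell by 1.18 at day 5 (SE 0.05, adjusted p = 1.46e-06), 2.29-fold by the means, and by 1.96 in long-term KO (SE 0.05, adjusted p = 3.52e-08), 3.97-fold. Both calls held in all 9 fits that left out 1 library. At day 6 of the inhibitor experiment *Vegfa* was at 15.0 and 20.6 FPKM against 23.1 and 21.8 FPKM in untreated cells, a difference of -0.35 (95% interval -0.73 to 0.02, adjusted p = 0.153). The intervals of the day 5 and day 6 differences did not overlap, but they come from separate experiments and their difference was not tested.

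With TSA *Vegfa* was at 7.59 and 7.66 FPKM, a difference of -1.55 (SE 0.16, adjusted p = 0.000166). With PD it was at 12.5 and 13.1 FPKM, a difference of -0.80 (SE 0.16, adjusted p = 0.0180) that is under 2-fold, and with 4OHT + PD at 18.4 and 21.3 FPKM. In the siRNA experiment it was at 11.4 and 12.9 FPKM with siCtrl, 17.2 and 13.9 with siDnmt1 and 16.7 and 20.2 with 4OHT + siDnmt1, but at 25.3 and 4.01 FPKM in the 2 libraries of 4OHT + siCtrl. The 2 libraries of 4OHT + siCtrl lay on opposite sides of all 6 others. The *Vegfa* difference within siCtrl was -0.26 (adjusted p = 0.846) with both libraries, 1.06 (adjusted p = 0.0154) without 4OHT + siCtrl replicate 2 and -1.57 (adjusted p = 0.00595) without replicate 1.

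*Vegfc*, the ligand of the lymphatic receptor *Flt4*, lies at chr8:55162886-55271808 and was the only ligand called higher in long-term KO. It was at 0.519, 0.731 and 0.638 FPKM in untreated cells, 0.641, 0.56 and 0.521 FPKM at day 5, and 4.15, 3.71 and 3.96 FPKM in long-term KO. The first 2 groups overlapped and every long-term library was above them, by 2.48 against untreated cells (SE 0.13, adjusted p = 1.39e-06), 6.25-fold by the means. Only the long-term libraries reached the 1 FPKM that the filter asks of 3 libraries, so *Vegfc* was tested through the group where it was high. It also rose at 4OHT day 6, to 4.28 and 8.83 FPKM against 0.887 and 1.16 FPKM in untreated cells, a difference of 2.49 (SE 0.37, adjusted p = 0.00433). With PD it was at 1.08 and 1.72 FPKM, with 4OHT + PD at 2.71 and 2.86 and with TSA at 2.61 and 2.12 FPKM. The TSA difference of 1.14 (SE 0.37, adjusted p = 0.0322) was called, but not in 4 of 10 fits that left out 1 library, and that of PD added to 4OHT was -1.12 (adjusted p = 0.123). *Vegfc* with siCtrl was at 5.06 and 5.15 FPKM, and with siDnmt1 at 5.35 and 4.89 FPKM, a difference of 0.00 with a 95% interval of -1.53 to 1.53. The 2 libraries of 4OHT + siCtrl were at 9.58 and 2.33 FPKM, and those of 4OHT + siDnmt1 at 7.31 and 13.8 FPKM. The 4OHT difference within siCtrl was -0.10 with both libraries, 0.89 (adjusted p = 0.125) without 4OHT + siCtrl replicate 2 and -1.10 (adjusted p = 0.0851) without replicate 1.

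*Kitl*, the ligand of *Kit* and also called stem cell factor, lies at chr10:99478458-99563046. In the total RNA experiment it varied little, with 9.06, 8.96 and 8.49 FPKM in untreated cells, 9.06, 9.48 and 9.04 FPKM at day 5 and 11.4, 11.7 and 11.3 FPKM in long-term KO. The long-term libraries were above all others by a difference of 0.38 (SE 0.04, adjusted p = 5.56e-05), which is 1.30-fold and not called. For the inhibitor experiment it was at 28.1 and 27.4 FPKM in untreated cells and 27.8 and 29.8 with TSA, against 5.49 and 7.58 with PD, 6.08 and 9.19 at 4OHT day 6, and 5.19 and 4.9 with 4OHT + PD. The 6 libraries given 4OHT or PD lay well below the 4 others. *Kitl* fell by 2.09 with PD (SE 0.22, adjusted p = 0.00133) and by 1.88 at 4OHT day 6 (SE 0.22, adjusted p = 0.00181), and both calls held in all 10 fits that left out 1 library. PD added to 4OHT gave a further difference of only -0.56 (adjusted p = 0.183), and the interaction of the 2 treatments was 1.53 (SE 0.31, adjusted p = 0.0907). For TSA the difference was 0.05 (95% interval -0.46 to 0.56) and was -0.04 after median-ratio scaling. *Kitl* with siCtrl was at 21.7 and 19.7 FPKM, above all other libraries of that experiment, with 12.7 and 11.6 for siDnmt1, 10.7 and 18.2 for 4OHT + siCtrl and 9.25 and 9.78 for 4OHT + siDnmt1, and none of these differences was called.

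*Igf1*, the insulin-like growth factor that acts through *Igf1r*, lies at chr10:87321010-87399792. It was at 3.62, 3.97 and 3.62 FPKM in untreated cells, 1.99, 2.1 and 2.01 FPKM at day 5, and 2.56, 2.7 and 2.78 FPKM in long-term KO. The order was untreated, long-term KO and day 5 with no overlap, and the day 5 difference of -0.85 (SE 0.06, adjusted p = 3.04e-05) was under 2-fold. Among the libraries of the inhibitor experiment *Igf1* was at 0.796 and 0.851 FPKM at 4OHT day 6 against 4.35 and 4.74 FPKM in untreated cells, a fall by 2.33 (SE 0.26, adjusted p = 0.00149) or 5.52-fold by the means. With siRNA it was at 11.8 and 10.7 FPKM for siCtrl and 8.93 and 8.25 for siDnmt1, against 2.27 and 1.11 for 4OHT + siCtrl and 1.24 and 0.274 for 4OHT + siDnmt1. All libraries given 4OHT were below all others, by -2.74 within siCtrl (SE 0.61, adjusted p = 0.0357) and -3.62 within siDnmt1 (SE 0.61, adjusted p = 0.0217). Without 4OHT + siCtrl replicate 2 the first difference was -2.26 (adjusted p = 0.0678) and was no longer called, without replicate 1 it was -3.23 (adjusted p = 0.0293), and the second lost its call in 4 of 8 fits that left out 1 library. PD alone left *Igf1* at 5.4 and 6.64 FPKM, above untreated cells by 0.39 (adjusted p = 0.362), and with 4OHT + PD it was at 2.08 and 1.55 FPKM. That is 1.68 lower than with PD on the log2 scale (SE 0.26, adjusted p = 0.0106) and 1.04 higher than at 4OHT day 6 (SE 0.26, adjusted p = 0.0551, not called). TSA lowered it to 2.28 and 1.53 FPKM, a difference of -1.24 (SE 0.26, adjusted p = 0.00457). *Igf1*, *Fgf7* and *Hgf* had a lower mean log2 value after 4OHT in each of the 5 comparisons of short-term 4OHT with its control, though *Hgf* was called in none of them and its sign for 4OHT + PD against PD turned without 4OHT + PD replicate 1 or PD replicate 2.

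Receptors of the ligands were measured in the same libraries. *Met* was at 14.1 to 29.4 FPKM and *Fgfr1* at 22.3 to 43.0 FPKM in all 27 libraries, and *Egfr* at 4.0 to 15.7 FPKM. *Kit* was listed at 0 in all 9 total RNA libraries and was at most 0.234 FPKM elsewhere, so the receptor of *Kitl* was near the floor throughout. *Erbb4* was at most 0.116 FPKM. Of 17 receptor genes listed, 11 were tested in the total RNA experiment. At day 5 none was called by limma, although 5 had an unadjusted and 4 an adjusted p under 0.05, with changes under 2-fold. In long-term KO 10 of the 11 had an adjusted p under 0.05. So did 3544 of 9792 genes at day 5 and 6564 in long-term KO. Only *Fgfr2* was also called in long-term KO (1.42, adjusted p = 8.44e-06), rising from 1.66, 2.03 and 1.56 FPKM to 4.57, 5.21 and 4.7 FPKM.

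*Flt4*, the receptor of *Vegfc*, was at 0.176 and 0.111 FPKM in untreated cells and 2.41 and 2.4 FPKM at 4OHT day 6, where both it (3.38, adjusted p = 0.000513) and *Kdr* (2.34, adjusted p = 0.00140) rose. *Erbb3* (-2.05, adjusted p = 0.00188) and *Igf1r* (-1.03, adjusted p = 0.00824) fell at the same time, so 2 receptors were higher and 2 lower of the 13 tested. *Flt4* also rose with 4OHT + siCtrl against siCtrl (2.46, adjusted p = 0.00610), from 0.173 and 0.217 FPKM to 1.75 and 1.31 FPKM. In the total RNA experiment *Flt4* was too low to be tested, at 0.157, 0.152 and 0.124 FPKM in untreated cells, 0.951, 0.768 and 1.05 FPKM at day 5 and 0.293, 0.223 and 0.275 FPKM in long-term KO. With PD 4 receptors rose, *Flt4*, *Kdr*, *Fgfr2* and *Fgfr3*, and *Erbb3* fell. With TSA *Flt4* (4.88), *Kdr* (3.67), *Erbb3* (2.25) and *Fgfr3* (2.10) rose and *Erbb2* fell (-1.37). Markers of endothelial cells, which express *Flt4* and *Kdr*, summed to 0.0751 to 0.214 FPKM in untreated cells of the inhibitor experiment. The sums were 0.328 to 0.388 FPKM with TSA, 0.357 to 0.449 with PD and 0.0886 to 0.285 at 4OHT day 6, with no marker at 1 FPKM or more. Which cells hold the receptor RNA was not tested.

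**Figure D3:**
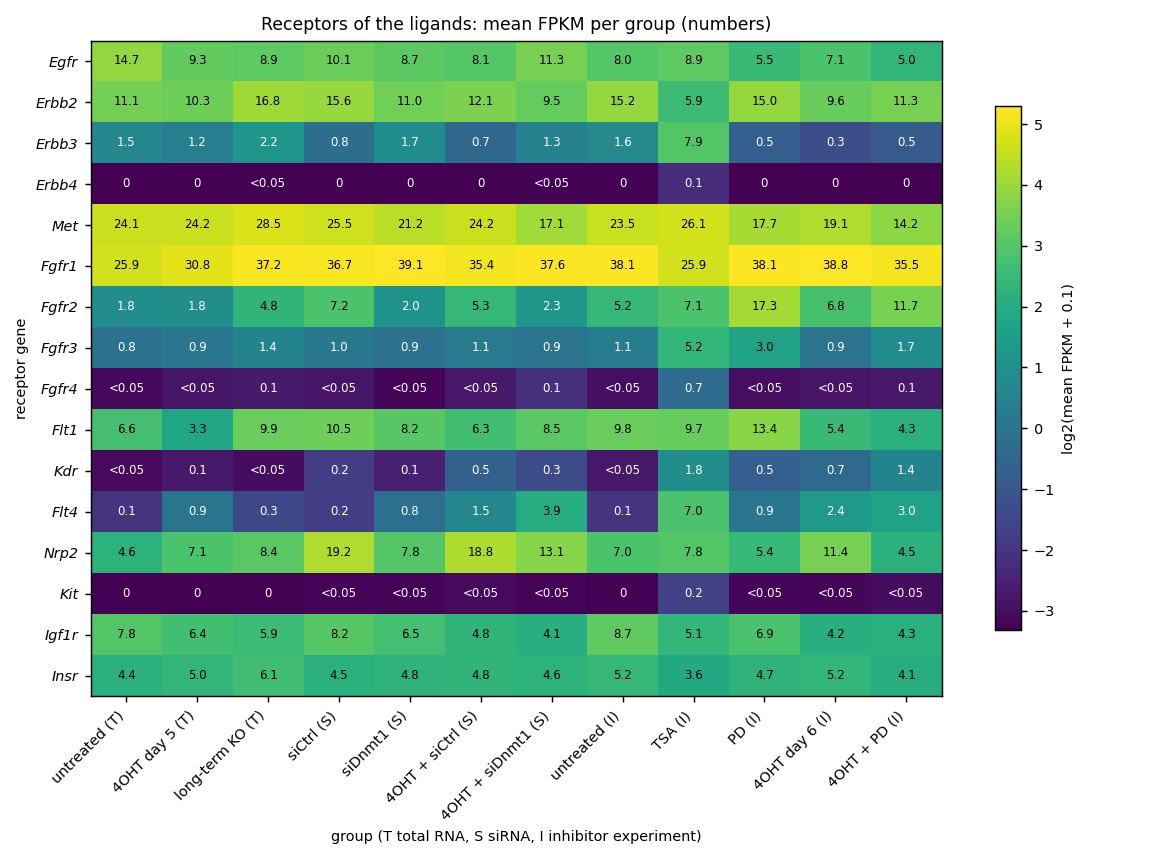
Rows are receptors of the ligands and columns the 12 groups, and each cell gives the mean FPKM over 2 or 3 libraries, with colour on a log2 scale. *Fgfr1* and *Met* are high in every group, *Kit* and *Erbb4* are near 0 in every group, and *Flt4* is lowest in untreated cells and siCtrl.

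ERK output was followed through 20 genes that the cascade induces, among them its feedback inhibitors of the Dusp, Spry and Spred families and the Etv transcription factors. With PD, 14 of the 20 fell and none rose, with a median difference of -2.00 against -0.07 over all genes. *Etv4* fell from 13.8 and 15.3 FPKM to 0.103 and 0.035 FPKM (-6.46, adjusted p = 1.09e-05), and *Spry4*, a feedback inhibitor, from 6.25 and 6.57 FPKM to 0.0992 and 0.0169 FPKM (-5.42, adjusted p = 0.000371). PD added to 4OHT also lowered 14, with a median of -2.26 against 0.04 over all genes. The ligands called lower with PD in both settings were *Areg*, *Ereg* and *Fgf7*, and their counts stand above as 5 and 3 of 10.

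In long-term KO, 13 of the 20 ERK output genes were called lower and 2 higher than in untreated cells, with a median of -1.22 against 0.07 over all genes. At day 5 only *Errfi1*, an inhibitor of the EGF receptor, was called (-1.30, adjusted p = 4.21e-05), and the median was -0.01. An adjusted p under 0.05 without the fold limit was reached by 10 of the 20 at day 5 and by all 20 in long-term KO. Over all 9792 genes tested it was reached by 3544 and 6564. *Etv4* was at 17.2, 18.9 and 19.2 FPKM in untreated cells, 11.8, 12.9 and 13.7 FPKM at day 5, and 1.71, 1.74 and 1.55 FPKM in long-term KO. *Errfi1* went from 111, 112 and 107 FPKM to 43.0, 47.7 and 43.4 FPKM at day 5 and 5.7, 7.23 and 5.63 FPKM in long-term KO. The 2 genes that rose in long-term KO, named here after their values were seen, were *Fos* (1.65) and *Etv1* (1.65). *Areg*, *Ereg* and *Hbegf* thus fell in the same libraries in which most ERK output genes fell, and none of the 3 was called at day 5 (*Areg* was at -0.39 with no overlap of the groups), and no test of that link was made. At 4OHT day 6, 3 ERK output genes were lower and *Dusp4* was higher (2.32, adjusted p = 0.00269), and with TSA 5 were higher and 2 lower, with *Dusp4* (4.17) and *Phlda1* (1.50) among those that rose.

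**Figure D4:**
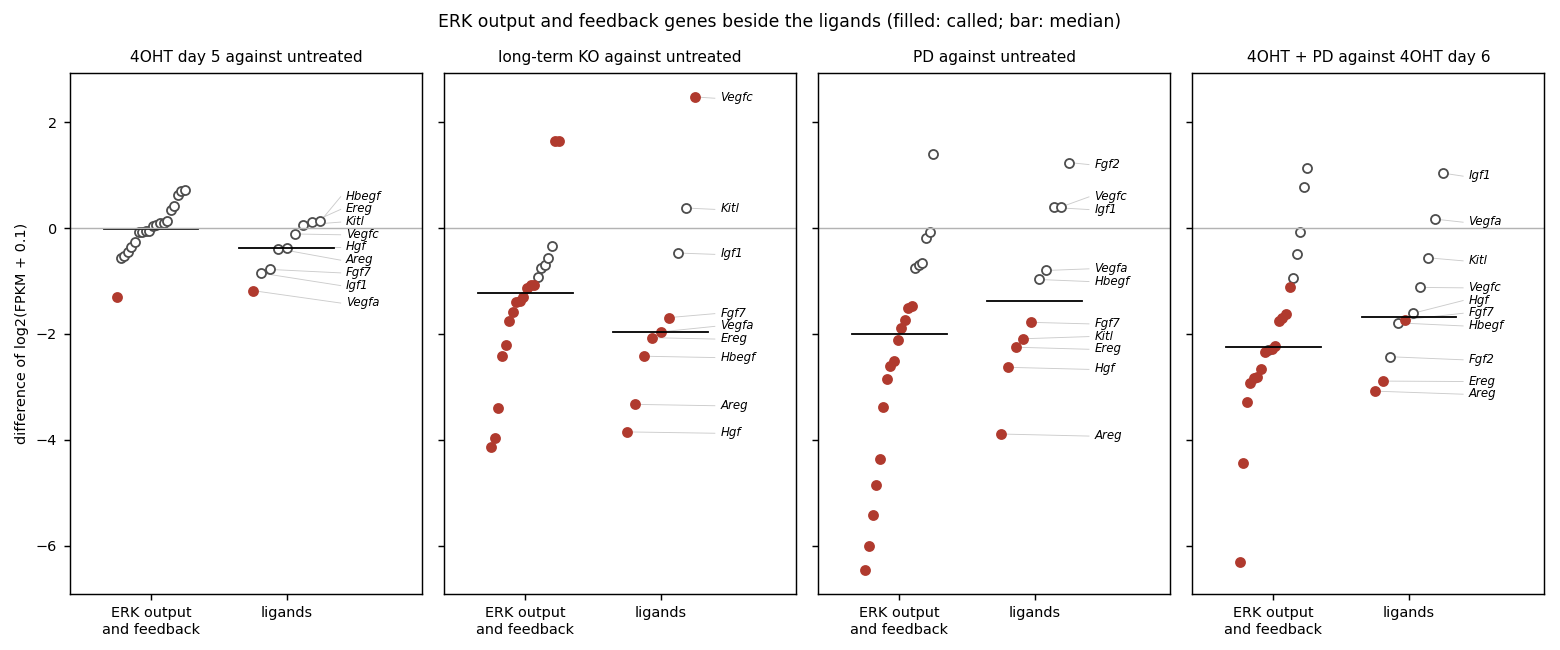
Each panel is 1 comparison, with the difference of log2(FPKM + 0.1) on the vertical axis for the 20 ERK output and feedback genes on the left and the ligands tested on the right. Filled points were called and bars are medians. At day 5 the medians are -0.01 and -0.37, and in long-term KO they are -1.22 and -1.96.

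Of 30 genes that release, activate or bind the ligands, 19 were tested in the total RNA experiment. At day 5, 1 was called higher and 3 lower, and in long-term KO 2 were called higher and 4 lower. Without the fold limit, 15 of the 19 had an adjusted p under 0.05 at day 5 and 16 in long-term KO. *Fgfbp1*, which carries FGF ligands out of the matrix, was at 41.2, 39.5 and 35.3 FPKM in untreated cells and 30.8, 32.1 and 28.8 FPKM at day 5, and fell to 0.75, 0.627 and 0.69 FPKM in long-term KO (-5.62, adjusted p = 4.67e-09). It was also at 28.6 and 28.2 FPKM in untreated cells of the inhibitor experiment against 0 and 0 with PD (-8.15, adjusted p = 0.00293) and 0.86 and 0.0823 FPKM at 4OHT day 6 (-6.09, adjusted p = 0.00609). A 0 can be a failed estimate, and the size of the PD difference is set by the pseudocount. *Ccbe1*, a secreted cofactor in the processing of *Vegfc*, fell at day 5 (-1.37, adjusted p = 0.000192) and in long-term KO (-2.56, adjusted p = 1.52e-06), from 1.33, 1.27 and 1.15 FPKM to 0.143, 0.116 and 0.127 FPKM, in the same long-term libraries in which *Vegfc* rose. *Ccbe1* passed the filter through its untreated libraries, where it was highest, so both falls rest on that selection. *Igfbp2*, a binding protein of *Igf1*, rose in long-term KO (2.49, adjusted p = 1.19e-05). *Adam17*, the protease that frees EGF family ligands, was at 15.1 to 21.8 FPKM in all libraries other than TSA, where it was at 36.9 and 37.8 FPKM, a difference of 0.94 (adjusted p = 0.000107) that is under 2-fold. With TSA 6 genes of this list rose and 6 fell.

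Among 30 other ligands of the same families, 9 were tested in the total RNA experiment. In long-term KO all 9 had an adjusted p under 0.05, and 3 were called higher and 3 lower. The largest were *Fgf21*, a metabolic hormone (-4.38, adjusted p = 3.36e-07), and *Fgf10*, the closest relative of *Fgf7* in its receptor use (3.40, adjusted p = 8.58e-08). *Fgf10* was at 0.289, 0.304 and 0.336 FPKM in untreated cells and 4.6, 4.08 and 4.0 FPKM in long-term KO, so it rose in the libraries in which *Fgf7* fell. At 4OHT day 6, 2 of 16 fell and 1 rose. *Igf2*, the relative of *Igf1*, fell from 200 and 201 FPKM to 30.1 and 25.9 FPKM (-2.84, adjusted p = 0.00142), *Figf*, also known as *Vegfd*, fell by a difference of -2.10 (adjusted p = 0.00424), and *Pdgfb* rose (1.90, adjusted p = 0.00540). *Igf2* also fell with 4OHT + siCtrl against siCtrl (-2.17, adjusted p = 0.0434). With PD 5 of 16 rose and none fell, among them *Fgf18* (3.10) and *Pdgfc* (1.46), where 5 of the 10 members fell. With TSA 5 rose and 5 fell, and *Tgfa*, an EGF receptor ligand like *Areg*, rose (3.64, adjusted p = 7.12e-05) to 1.27 and 1.69 FPKM.

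The hypoxia response was set beside *Vegfa*, a known target of it. Of 12 genes tested, 2 were called lower at day 5, *Adm* (-2.23, adjusted p = 0.00159) and *Ddit4* (-1.62, adjusted p = 5.25e-06). In long-term KO 1 was called lower, *Egln3* (-1.57, adjusted p = 8.62e-07). The medians were -0.47 and -0.39 against 0.00 and 0.07 over all genes. All 12 had an adjusted p under 0.05 at day 5, and 8 in long-term KO, where 3544 and 6564 of 9792 genes did. At day 5 only *Kdm3a* of those tested had a higher mean than in untreated cells, 8.22 against 7.45 FPKM. The counts below are of called genes. At 4OHT day 6, 5 fell, with a median of -0.70 against 0.00, among them *Adm* (-3.57, adjusted p = 0.00236) and *Bnip3* (-2.26, adjusted p = 0.000131), while *Vegfa* was not called. With TSA 1 rose and 5 fell, and with PD 4 fell.

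Whether the effect of 4OHT on the ligands differed with siDnmt1 or with PD was tested as an interaction. No ligand was called in either, where 0.199% (0.123% higher, 0.0757% lower) and 0.716% (0.513% higher, 0.203% lower) of all genes were called by limma and 0 and 4 of the 10 ligands had an unadjusted p under 0.05. With siDnmt1 the lowest adjusted p was 0.545, for *Fgf2*. With PD the lowest was 0.0907 for *Kitl*, followed by 0.110 for *Vegfa*, whose interaction of 0.98 (SE 0.23) is that between a difference of -0.35 for 4OHT without PD and of 0.62 with PD.

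The pattern of each ligand over the 9 group means of the siRNA and inhibitor experiments, centred within each, was compared with that of 10126 genes by Pearson's correlation, as a description with no test. The points share libraries in part and rest on 2 libraries each. The genes most like *Areg* were Ppp1r13l (0.987) and Tufm (0.984), and those most like *Kitl* were Rprd1a (0.983) and Foxo3 (0.982). For *Igf1* they were Igsf10 (0.977) and Prdx4 (0.976), for *Fgf7* Pcdh19 (0.957) and Fam64a (0.956), for *Vegfc* Pdlim1 (0.955) and Btg3 (0.938), and for *Vegfa* Runx3 (0.961) and Ino80c (0.960). *Ereg* was closest to Gcnt4 (0.985) and Prkg2 (0.969), *Hbegf* to Nmt2 (0.944) and Rnaseh2a (0.942), *Hgf* to Ak4 (0.958) and Slc14a1 (0.927), and *Fgf2* to Znhit6 (0.973) and Jun (0.920). Among the ligands themselves, *Areg*, *Ereg* and *Hbegf* were alike, at 0.85 for *Areg* and *Ereg*, 0.84 for *Ereg* and *Hbegf* and 0.81 for *Areg* and *Hbegf*. *Fgf2* and *Vegfc* were alike at 0.87, and *Vegfc* and *Igf1* moved oppositely at -0.72.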

How the data were processed

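RNA-seq libraries (27) were made from 1 iMEF line, from rRNA-depleted total RNA in the total RNA experiment. Per the labels, alignment was to mm9 by TopHat2 2.0.12, and Cufflinks gave the FPKM values that the authors deposited with their intervals, which were used here. Deposited tables of the authors' own comparisons (group FPKM, fold changes, p-values) were not used. Rows of the siRNA and inhibitor experiments were taken by symbol, leaving out 9243 of 426510 named rows with several symbols. Total RNA loci were matched by position when they covered 95% of a gene, and loci joined with a neighbour were set to missing. No column of per-sample values was left unmapped (0 columns).

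Values were taken as log2(FPKM + 0.1) and modelled by limma 3.58.1 (R 4.3.3), separately for the 3 experiments and over every group of each, with a trended prior, two-sided tests and Benjamini-Hochberg adjustment over all genes tested (at least 1 FPKM in 3 libraries, or in 2 for the siRNA and inhibitor experiments). A gene that is low in the other groups can pass the filter through the group where it is high. Fold changes on this scale understate those of low genes. The script was tested on simulated data with 200 changed genes. Fragment numbers were implied from the deposited intervals, and give counting error only. Alternatives were other pseudocounts, filters, scalings and priors, fits of only the groups compared, a replicate block, matching at 50% cover, joined loci kept (added after the data were seen) and each library left out. Tables were made with Python 3.11.15, pandas 2.3.3 and numpy 2.4.6, and plots with matplotlib 3.10.9. The 10 ligands and all gene lists were chosen with earlier results of these data known. All 10 ligands are named throughout, with up to 4 called genes of each list by size of change, and other list genes (receptors by level, Adam17 and those said so) were named after their values were seen. A header line of PD replicate 2 also names 4OHT + PD, and the sample label was followed.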

Additional observations from a re-analysis of the deposited data

Results flagged for a closer look

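*Areg* moved in opposite directions after 4OHT in separate experiments. Its difference was -0.39 at day 5 of the total RNA experiment, with all 3 treated libraries below all untreated ones, and 0.63 with 4OHT + siCtrl and 1.01 at 4OHT day 6, with both treated libraries above both controls. None of the 3 was called, and the difference between experiments, which also differ in library type and day, was not tested.

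*Fgf2* was lower after 4OHT in the siRNA experiment (-2.74, not called) and higher in the inhibitor experiment (4.46, called), as differences of log2(FPKM + 0.1), with no overlap of the groups in either. It was listed at 0 in both untreated libraries of the latter and in 1 library of 4OHT + siCtrl, and a 0 can be a failed estimate. Both sizes are set by the pseudocount and are neither folds nor bounds, and the difference between experiments was not tested. In the inhibitor experiment *Fgf2* passed the filter only through its 4OHT day 6 values.

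The difference from untreated cells at day 5 and in long-term KO was set apart by the limma test of long-term KO against 4OHT day 5. All 9 ligands tested had an adjusted p under 0.05, as did 6450 of the 9792 genes tested. Of the 9, 5 also differed by at least 2-fold, as did 12.4% of all genes. The difference was -2.94 for *Areg* (adjusted p = 1.21e-05), -2.18 for *Ereg* (adjusted p = 1.86e-06), -2.55 for *Hbegf* (adjusted p = 8.67e-07), -3.48 for *Hgf* (adjusted p = 6.59e-07) and 2.58 for *Vegfc* (adjusted p = 1.24e-06), in each with all 3 long-term libraries on 1 side of all 3 day 5 libraries. *Vegfc* entered these tests only through its long-term KO values. No group held enough libraries for a test of single outlying values.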

How the results depend on the processing

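Of 2619 values of single ligands under other settings, 2452 kept their direction and side of the threshold, 92 lost their call, 36 gained a call and 39 changed sign. Where a library was left out, the lone library of its group was assumed to vary like the others. FPKM carry no counts, the 2 libraries a group in 2 of the experiments limit precision, and values under a few fragments are weak. The cause of the changes below was not tested, except that a filter of 5 FPKM removes low ligands from the test.

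The number of ligands called moved as follows. With no fold limit it was 3 at day 5 and 9 for long-term KO against day 5, where 3544 and 6450 of 9792 genes were called. At 5 FPKM it was 3 for long-term KO against untreated, 1 for long-term KO against day 5, 4 with TSA and 3 at 4OHT day 6. With only the groups compared in the fit it was 0 for 4OHT + siCtrl, 2 for PD, 0 for 4OHT + PD against 4OHT day 6 and 0 against PD. With pseudocount 1 it was 3 with TSA, 1 for 4OHT + PD against PD and 1 for the PD interaction, and with no filter or with quantile normalization it was 1 for 4OHT + siCtrl and 1 for 4OHT + PD against PD.

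Leaving out 1 library at a time, the number of ligands called ran from 0 to 3 for 4OHT + siCtrl against siCtrl, from 0 to 3 for 4OHT + siDnmt1 against 4OHT + siCtrl, from 0 to 2 for 4OHT + siDnmt1 against siDnmt1, from 2 to 6 for PD against untreated, from 3 to 8 for TSA against untreated, from 1 to 5 for 4OHT + PD against 4OHT day 6, from 0 to 2 for 4OHT + PD against PD, from 0 to 1 for interaction of 4OHT and siDnmt1, from 0 to 1 for interaction of 4OHT and PD. Over all genes, the count called ran in such fits from 87 to 847 for siDnmt1 against siCtrl (511 with all libraries), from 100 to 1107 for 4OHT + siCtrl against siCtrl (639), from 56 to 856 for 4OHT + siDnmt1 against 4OHT + siCtrl (154), from 50 to 954 for 4OHT + siDnmt1 against siDnmt1 (602), from 335 to 872 for PD against untreated (820), from 664 to 1281 for 4OHT day 6 against untreated (1253), from 272 to 459 for 4OHT + PD against 4OHT day 6 (427), from 265 to 533 for 4OHT + PD against PD (503), from 11 to 463 for the siDnmt1 interaction (21) and from 34 to 153 for the PD interaction (81). The lowest counts came without a library of siCtrl or siDnmt1 in the siRNA experiment, and without untreated replicate 2 or a library of 4OHT + PD in the inhibitor experiment, and the highest siRNA counts without a library of 4OHT + siCtrl. The share of called genes that were higher moved by over 10 percentage points after quantile normalization at day 5 (61.3% to 51.2%) and for 4OHT + siDnmt1 against 4OHT + siCtrl (72.1% to 58.1%), and in the PD interaction by median ratio (71.6% to 55.4%).

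Signs turned under scaling for *Hbegf* with 4OHT + siCtrl (-0.03) and *Kitl* with TSA (-0.04) and *Fgf7* in the PD interaction (-0.08), all by median ratio, and for *Hgf* in 4OHT + siDnmt1 against 4OHT + siCtrl by quantiles (-0.42). *Areg* in the PD interaction was -0.36 with pseudocount 1. Median-ratio scaling moved the median of all genes from 0.14 to -0.02 for 4OHT + siDnmt1 against siDnmt1, and from 0.10 to 0.00 with TSA. Signs also turned when 1 library was left out, with these ranges over such fits. For siDnmt1 against siCtrl they were *Areg* -0.12 to 0.41, *Fgf7* -0.53 to 0.18, *Fgf2* -3.62 to 0.73. For 4OHT + siCtrl against siCtrl they were *Hbegf* -0.53 to 0.62, *Ereg* -0.11 to 0.43, *Vegfa* -1.57 to 1.06, *Vegfc* -1.10 to 0.89. For 4OHT + siDnmt1 against 4OHT + siCtrl they were *Hbegf* -0.14 to 1.01, *Vegfa* -0.46 to 2.17, *Hgf* -0.29 to 1.06. For 4OHT + siDnmt1 against siDnmt1 they were *Hbegf* -0.15 to 0.11, *Fgf2* -0.74 to 3.62, *Areg* -0.84 to 0.08. For PD against untreated they were *Hbegf* -1.99 to 0.06. For 4OHT + PD against 4OHT day 6 they were *Vegfa* -0.05 to 0.40. For 4OHT + PD against PD they were *Ereg* -0.67 to 0.58, *Fgf2* -0.45 to 2.02, *Hgf* -1.04 to 0.27, *Hbegf* -0.53 to 1.52. For interaction of 4OHT and siDnmt1 they were *Hbegf* -0.64 to 0.51, *Kitl* -0.17 to 0.58, *Vegfa* -0.81 to 1.82, *Hgf* -1.13 to 0.22, *Igf1* -1.79 to 0.04. For interaction of 4OHT and PD they were *Hbegf* -1.85 to 0.20, *Fgf7* -0.33 to 0.44.

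Libraries with the same replicate number deviated together with correlations of -0.05 to 0.12 in the total RNA and -0.07 to 0.02 in the siRNA experiment. In the inhibitor experiment they were -0.03 to 0.04 for untreated cells and TSA with each other and all other groups, but 0.23, 0.21 and 0.26 among PD, 4OHT day 6 and 4OHT + PD. With only 2 numbers the correlation is the same for both by construction, so the numbers were not taken as pairs. With the replicate number as a block, the ligands called were 3 for 4OHT + PD against PD, where *Fgf7* was added (adjusted p = 0.0208), and the number was unchanged in the other comparisons. Over all genes, the block moved the count called by over 1.5 times in 4OHT + siDnmt1 against 4OHT + siCtrl (154 to 78), interaction of 4OHT and siDnmt1 (21 to 13). Counts over all genes fell to 197 from 326 for 4OHT day 5 against untreated (at least 5 FPKM), 840 from 1346 for long-term KO against untreated (at least 5 FPKM), 750 from 1211 for long-term KO against 4OHT day 5 (at least 5 FPKM), 289 from 511 for siDnmt1 against siCtrl (at least 5 FPKM), 105 from 639 for 4OHT + siCtrl against siCtrl (only the groups compared), 35 from 154 for 4OHT + siDnmt1 against 4OHT + siCtrl (only the groups compared), 390 from 602 for 4OHT + siDnmt1 against siDnmt1 (at least 5 FPKM), 59 from 427 for 4OHT + PD against 4OHT day 6 (only the groups compared), 145 from 503 for 4OHT + PD against PD (only the groups compared), 12 from 21 for interaction of 4OHT and siDnmt1 (at least 5 FPKM), and rose to 3544 from 326 for 4OHT day 5 against untreated (no fold limit), 6564 from 1346 for long-term KO against untreated (no fold limit), 6450 from 1211 for long-term KO against 4OHT day 5 (no fold limit), 942 from 511 for siDnmt1 against siCtrl (only the groups compared), 1455 from 639 for 4OHT + siCtrl against siCtrl (no fold limit), 235 from 154 for 4OHT + siDnmt1 against 4OHT + siCtrl (no filter), 1465 from 602 for 4OHT + siDnmt1 against siDnmt1 (no fold limit), 1550 from 820 for PD against untreated (no fold limit), 6317 from 3628 for TSA against untreated (no fold limit), 2825 from 1253 for 4OHT day 6 against untreated (no fold limit), 785 from 427 for 4OHT + PD against 4OHT day 6 (no fold limit), 923 from 503 for 4OHT + PD against PD (no fold limit), 50 from 21 for interaction of 4OHT and siDnmt1 (no filter).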
